A study of Mus musculus with 9 samples.

Results

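The genes described here encode 6 giant proteins of the muscle cytoskeleton, Ttn, Neb, Xirp2, Syne1, Syne2 and Macf1. They were selected by symbol, and the symbols matched 6 of the 56791 genes in the table of counts. All 6 passed a filter on low counts that left 17534 genes for testing. RNA was sequenced from the gastrocnemius, a calf muscle, of female mice in 9 libraries, 3 for each of 3 groups. The aged GB group received ginkgolide B (GB), a terpene lactone of the ginkgo tree, at 12 mg per kg. The aged vehicle group and the young vehicle group received saline. All 3 groups were dosed by daily oral gavage for 2 months. Sample titles hold 23M for the aged vehicle group and 3M for the young vehicle group, and the titles of the GB group hold no such value. The labels name no strain. Whether each library is a separate animal is not stated, and the p-values therefore describe library-to-library spread, part of which may be technical.

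Titin (Ttn) spans the sarcomere from Z-disc to M-band and acts as its molecular spring, and nebulin (Neb) runs along the thin filament and stabilises it. Xirp2, a Xin actin-binding repeat protein, sits at membrane attachment sites of myofibrils and is a known target of the transcription factor MEF2. Syne1 and Syne2 encode nesprin-1 and nesprin-2, which cross the outer nuclear membrane and join SUN proteins in the LINC complex, the bridge between nucleus and cytoskeleton. Macf1 is a spectraplakin, a cross-linker of actin filaments and microtubules that also takes part in placing nuclei in muscle fibres.

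Each of the 6 genes is long. By the length column of the table, Ttn has 117334 bases and ranks 2 among the genes tested. Syne1 has 40491 bases, Macf1 32989, Syne2 26726, Neb 26675 and Xirp2 14378. In GENCODE M21, Ttn, Neb and Xirp2 lie on chromosome 2, Syne1 on chromosome 10, Syne2 on chromosome 12 and Macf1 on chromosome 4. Counts were made per gene, so isoforms of a gene were not separated. Annotated genes that overlap a member held at most 3.63% of that member's count in any library, a value reached by Gm10097 within Syne1.

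Promoters were read from RefSeq for 5 of the 6 genes (7 start sites, GRCm38.p6), with Neb not in the table used. The 250 bases before the start are shown for the pair that carry a MEF2 motif, Ttn and Xirp2, and for the nesprin pair, whose levels parted in the GB libraries. Capitals mark the MEF2 motif (searched by its name as a consensus of 10 letters, both strands) and the E-box CANNTG, the core site of myogenic bHLH factors.
Ttn, chr2:76982548-76982797, minus strand: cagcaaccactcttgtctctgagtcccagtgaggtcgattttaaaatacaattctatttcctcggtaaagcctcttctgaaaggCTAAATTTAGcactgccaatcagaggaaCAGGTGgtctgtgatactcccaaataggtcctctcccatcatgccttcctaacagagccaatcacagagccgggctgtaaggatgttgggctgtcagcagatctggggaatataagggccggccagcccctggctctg
Xirp2, chr2:67445752-67446001, plus strand: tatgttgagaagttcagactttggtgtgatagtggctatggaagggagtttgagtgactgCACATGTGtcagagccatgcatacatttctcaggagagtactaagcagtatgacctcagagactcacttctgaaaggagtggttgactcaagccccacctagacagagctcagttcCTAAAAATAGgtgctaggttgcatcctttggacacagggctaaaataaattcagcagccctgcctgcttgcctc
Syne1, the most upstream of its 3 start sites, chr10:5550693-5550942, minus strand: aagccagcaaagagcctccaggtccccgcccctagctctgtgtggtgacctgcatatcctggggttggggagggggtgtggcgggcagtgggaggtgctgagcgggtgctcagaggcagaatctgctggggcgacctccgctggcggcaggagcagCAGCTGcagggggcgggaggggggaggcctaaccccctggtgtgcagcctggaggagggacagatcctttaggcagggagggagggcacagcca
Syne2, chr12:75818068-75818317, plus strand: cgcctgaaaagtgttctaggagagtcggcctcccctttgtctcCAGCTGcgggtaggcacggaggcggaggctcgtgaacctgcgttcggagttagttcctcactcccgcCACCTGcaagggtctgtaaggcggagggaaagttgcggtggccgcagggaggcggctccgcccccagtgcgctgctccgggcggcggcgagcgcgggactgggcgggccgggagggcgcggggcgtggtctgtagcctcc
The MEF2 match in Ttn was CTAAATTTAG, starting 166 bases before the start site, and that in Xirp2 was CTAAAAATAG, starting 74 bases before it. Such a match was present in 167 of 32851 promoters of the same length, or 0.508%. An E-box was present in 66.2% of them, so its presence in all 4 sequences is near the background. In Xirp2 the run of capitals upstream of the MEF2 match holds a pair of overlapping E-boxes, CACATG and CATGTG. No MEF2 match was found in the windows of Syne1, Syne2 or Macf1. The search also covered further promoter motifs, the CArG box, MCAT and TATAAA, with matches in 1.47%, 12.6% and 12.4% of promoters. None of these lay in the 4 windows shown. MCAT matched in Macf1 and in another Syne1 window, TATAAA in another Syne1 window, and the CArG box in no window. The windows of Syne1 and Syne2 shown above were richer in G and C, at 68% and 70% of bases, than those of Ttn (50%) and Xirp2 (46.8%), against a median of 52.4% over all promoters. The other Syne1 start sites had 50.8% and 38.8%.

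Levels are given as CPM (each count over its library's scaled total) after scaling by TMM, a method that sets libraries on a scale where most genes do not differ. Per kilobase of listed length, the sarcomeric genes and Xirp2 stood far above the nesprins and Macf1 in every group. In the aged GB libraries, Neb had 91.0 ± 1.91, Xirp2 90.3 ± 3.97, Ttn 54.9 ± 1.03, Macf1 1.69 ± 0.00936, Syne2 1.20 ± 0.151 and Syne1 0.383 ± 0.0917 CPM per kilobase (SD, n = 3 each). In the aged vehicle libraries the same quantity was 204 ± 24.3 for Neb, 98.2 ± 3.15 for Xirp2, 75.8 ± 19.9 for Ttn, 4.22 ± 0.0881 for Macf1, 2.65 ± 0.206 for Syne1 and 1.72 ± 0.193 for Syne2. In the young vehicle libraries it was 216 ± 17.4 for Neb, 114 ± 4.71 for Xirp2, 109 ± 12.4 for Ttn, 3.23 ± 0.399 for Macf1, 2.12 ± 0.235 for Syne1 and 1.38 ± 0.0522 for Syne2. Neighbours in these orders did not overlap between libraries, with 3 exceptions. Neb and Xirp2 overlapped in the aged GB libraries, and Xirp2 and Ttn overlapped in the aged vehicle and in the young vehicle libraries. Syne2 lay above Syne1 per kilobase in the GB group and below it in both vehicle groups.

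**Figure D1:**
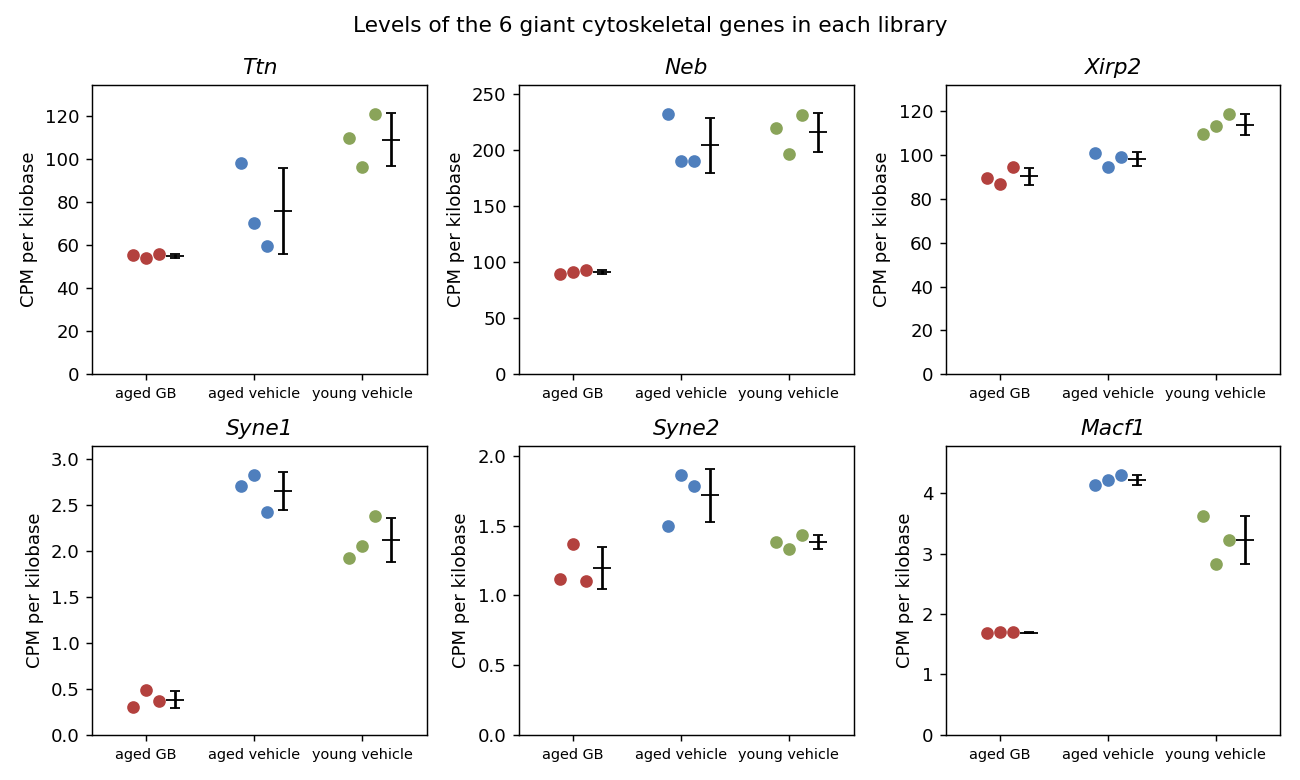
Level of each of the 6 genes in CPM per kilobase of listed length, with 1 point per library, ordered aged GB, aged vehicle and young vehicle, and the mean with SD beside the points. The vertical axes start at 0 and differ between genes. Syne1 lies between 0.303 and 0.483 in the GB libraries and between 1.93 and 2.83 in the vehicle libraries, while Xirp2 lies between 86.7 and 119 in all 9.

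Together the 6 genes took 0.760 to 0.817% of all counts in the aged GB libraries, 1.60 to 2.12% in the aged vehicle and 2.05 to 2.51% in the young vehicle libraries. Ttn alone made up 50.7 to 63.6% of the counts of the 6. Depth was ample for each gene. The lowest count was 386, for Syne1 in a GB library, and Ttn reached 985843 in a young vehicle library.

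The libraries differ as wholes in ways that bear on these genes. Total counts were lower in the GB libraries (39478427 to 44294097) than in the vehicle libraries (51543383 to 61680520). Mitochondrially encoded genes took 24.3 to 26.1% of counts in the GB, 13.9 to 15.3% in the aged vehicle and 8.60 to 10.2% in the young vehicle libraries. A first principal component with 57.0% of the variance set the GB libraries apart, and since no batch is given in the labels, treatment and library preparation cannot be told apart. The labelled tissue was checked with 8 markers of muscle fibres, all of them detected. Their summed level was 176459 to 203265 CPM in the aged GB, 90897 to 102606 in the aged vehicle and 125933 to 136458 in the young vehicle libraries. Other cells of the tissue also differed in marker level. Endothelial markers, all 10 detected, summed to 408 to 495 CPM in the aged GB, 697 to 739 in the aged vehicle and 483 to 503.9 in the young vehicle libraries. Smooth muscle and pericyte markers, all 8 detected, summed to 464 to 539, 740 to 852 and 435 to 471 CPM in the same order of groups. Tendon markers summed to 68.6 to 116 CPM in the aged GB, 207 to 316 in the aged vehicle and 325 to 577 in the young vehicle libraries, and adipocyte markers to 632 to 858, 253 to 289 and 274 to 441 CPM. Schwann cell markers summed to 161 to 265, 112 to 124 and 225 to 429 CPM, and red blood cell markers to 687 to 782, 1159 to 2130.3 and 239 to 515 CPM, in that order. Fibroblast markers summed to 581 to 748, 880.3 to 1137 and 1073 to 2263 CPM, and macrophage markers to 165 to 182, 197 to 227 and 179 to 209 CPM. Syne1, Syne2 and Macf1 are also expressed outside muscle fibres, and the part of these other cells in their values was not tested. In bulk tissue, fewer cells of a type and less RNA per cell cannot be told apart.

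Aged vehicle was first set against young vehicle, the age comparison of the design. Of the 6 genes only Macf1 was called, at an adjusted p under 0.05 in edgeR's quasi-likelihood test, against a background of 8.60% of all genes tested (4.32% higher, 4.28% lower) and 11.5% of the 2606 genes over 8000 bases. The median log2 fold change of the 6 genes was 0.12, against -0.0022 over all genes. It was 0.11 over the 308 genes above 16000 bases, the length class of every member but Xirp2. The sarcomeric genes and Xirp2 had negative fold changes and the nuclear and microtubule linkers positive ones. Some genes are described below as not overlapping between groups. With 3 libraries against 3, full separation gives an exact two-sided permutation p of 0.1. The share of all genes tested that separate in this way was not counted.

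Ttn had 11489.9, 8225 and 6965 CPM in the aged vehicle libraries and 12853, 11284 and 14189.8 CPM in the young vehicle libraries. The groups overlapped through aged vehicle replicate 1, and the spread in the aged vehicle group was 26.3% of its mean, the widest of the 6 genes in any group. The log2 fold change was -0.52 (SE 0.15, 95% interval -0.86 to -0.19, edgeR adjusted p = 0.0599). Without aged vehicle replicate 1 it was -0.75 and called (edgeR adjusted p = 0.00231). The difference was also called with library totals as the scale (adjusted p = 0.0399), upper-quartile factors (0.0274), DESeq2 (0.0146) and limma-voom (0.0294).

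Neb had 6193, 5081 and 5060.0 CPM in the aged vehicle libraries and 5845, 5245 and 6161 CPM in the young vehicle libraries. The groups overlapped, and the log2 fold change of -0.08 (SE 0.09) had a 95% interval of -0.28 to 0.12 (edgeR adjusted p = 0.685). Xirp2 had 1449, 1361 and 1425 CPM in the aged vehicle libraries and 1575, 1631 and 1709 CPM in the young vehicle libraries. All aged values of Xirp2 lay below all young values, by a log2 fold change of -0.21 (SE 0.07, 95% interval -0.37 to -0.06), which did not pass in edgeR (adjusted p = 0.0792) and did pass with upper-quartile factors (0.0310) and limma-voom (0.0386). An offset that took out each library's own trend of counts with gene length brought both below the threshold, with Neb at -0.24 (adjusted p = 0.0435) and Xirp2 at -0.30 (0.0195).

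Syne1, the gene of nesprin-1, had 109, 115 and 98.2 CPM in the aged vehicle libraries and 78.0, 83.0 and 96.4 CPM in the young vehicle libraries. Syne2, the gene of nesprin-2, had 40.0, 49.8 and 47.7 CPM in the aged vehicle libraries and 36.9, 35.6 and 38.4 CPM in the young vehicle libraries. The mean of each nesprin was higher in the aged than in the young vehicle libraries, and neither difference passed the test in any of 22 alternative settings. The log2 fold change was 0.32 for Syne1 (SE 0.14, 95% interval 0.01 to 0.64, edgeR adjusted p = 0.205) and 0.31 for Syne2 (SE 0.11, 95% interval 0.07 to 0.55, edgeR adjusted p = 0.113).

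Macf1, the spectraplakin gene, had 136, 139 and 142 CPM in the aged vehicle libraries and 119.7, 93.4 and 106 CPM in the young vehicle libraries. The groups did not overlap, and Macf1 rose 1.31-fold with age, by a log2 fold change of 0.39 (SE 0.09, with an edgeR adjusted p of 0.0198). The call was lost without young vehicle replicate 2 (adjusted p = 0.0910) or 3 (0.0780) and without aged vehicle replicate 2 (0.0662) or 3 (0.0824). It was lost too with the length offset (log2 fold change 0.22, adjusted p = 0.181).

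**Figure D2:**
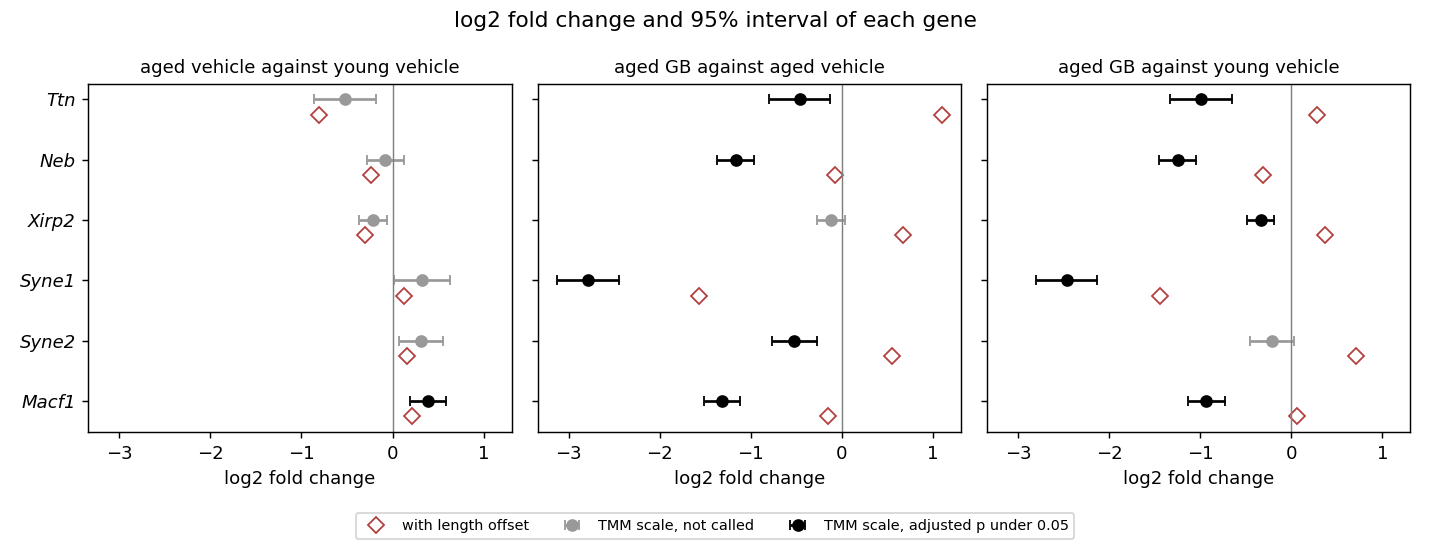
Log2 fold change of each gene (circles, with 95% intervals, black where called) in the 3 comparisons, with the value under a length offset as open diamonds. Syne1 with GB is the value farthest from 0, at -2.79 against aged vehicle, and stays below 0 under the offset at -1.57, while Ttn, Xirp2 and Syne2 move to the other side of 0, at 1.10, 0.67 and 0.56.

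Aged GB against aged vehicle, the treatment comparison, came next in the design. On the TMM scale 5 of the 6 genes fell and Xirp2 was not called, against a background of 53.2% of all genes called, 28.8% lower and 24.4% higher. Among the 2606 genes over 8000 bases 59.0% were called lower and 6.10% higher. The median log2 fold change of the 6 was -0.84, against -0.05 over all genes. Over the 308 genes above 16000 bases, the length class of every member but Xirp2, the median was -0.86 and 72.7% were called lower. The median of the 6 was thus near that of genes of like length. Syne1 fell most, then Macf1 and Neb.

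Syne1 had 12.3, 19.6 and 14.7 CPM in the aged GB libraries and 109, 115 and 98.2 CPM in the aged vehicle libraries. No GB library came near a vehicle library, and the raw counts behind these levels were 386, 652 and 461 with GB against 6213, 7254 and 5979 with vehicle. The level was 6.91-fold lower with GB, a log2 fold change of -2.79 (SE 0.16, with an edgeR adjusted p of 2.66e-08). This call and its direction held in all 22 alternatives, in which the log2 fold change ran from -3.36 to -1.57. The value of -1.57 was that with an offset for the libraries' length trend (edgeR adjusted p = 1.97e-06).

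Syne2, the closest relative of Syne1 among the 6, had 29.8, 36.6 and 29.4 CPM in the aged GB libraries and 40.0, 49.8 and 47.7 CPM in the aged vehicle libraries. The groups did not overlap, and Syne2 fell with a log2 fold change of -0.52 (SE 0.11, with an edgeR adjusted p of 0.00189), which turned to 0.56 with the length offset (adjusted p = 0.00393). The direction of Syne2 therefore depended on whether the libraries' length trend was taken out, and that of Syne1 did not.

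Macf1 had 55.5, 55.9 and 56.0 CPM in the aged GB libraries and 136, 139 and 142 CPM in the aged vehicle libraries. Replicates lay close together in both groups, with an SD of 0.553% of the mean with GB and 2.09% with vehicle. The GB counts were 1745, 1864 and 1752. Counting noise alone would exceed the GB value at such counts, so 0.553% does not measure replicate precision. Macf1 fell 2.49-fold on the TMM scale, with a log2 fold change of -1.32 (SE 0.09, with an edgeR adjusted p of 1.47e-07), and was at -0.15 and not called with the length offset (adjusted p = 0.199). The age difference of Macf1 and its GB difference had opposite signs on the TMM scale, and both comparisons use the same aged vehicle libraries.

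Ttn had 6496, 6307 and 6532 CPM in the aged GB libraries and 11489.9, 8225 and 6965 CPM in the aged vehicle libraries. The GB replicates were tight and all lay below the lowest aged vehicle replicate. Ttn fell with a log2 fold change of -0.46 (SE 0.15, 95% interval -0.80 to -0.13, edgeR adjusted p = 0.0242), and the value turned to 1.10 with the length offset (adjusted p = 4.32e-06). The call was lost without aged vehicle replicate 1 (log2 fold change -0.25, adjusted p = 0.0675) and without aged GB replicate 1 (adjusted p = 0.0660), 2 (0.0682) or 3 (0.0610), and also with no filter on low counts (adjusted p = 0.0825). Only 20 of the genes tested have a listed length of 30730 bases or more, so the length trend at Ttn rests on shorter genes.

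Neb had 2371, 2442 and 2469 CPM in the aged GB libraries and 6193, 5081 and 5060.0 CPM in the aged vehicle libraries. The groups lay far apart, and Neb fell 2.24-fold on the TMM scale, with a log2 fold change of -1.17 (SE 0.09, with an edgeR adjusted p of 4.78e-07). With the length offset it was at -0.07 and not called (adjusted p = 0.403). Xirp2 had 1287, 1247 and 1359.7 CPM in the aged GB libraries and 1449, 1361.5 and 1425 CPM in the aged vehicle libraries. Its groups all but touched, and the log2 fold change was -0.12 (SE 0.07, 95% interval -0.27 to 0.03, edgeR adjusted p = 0.164), against 0.67 with the length offset (adjusted p = 8.36e-06) and -0.69 with library totals (2.37e-06). Xirp2 was thus called in opposite directions on these scales.

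Scaling by library totals moved the median over all genes to -0.62 on the log2 scale in this comparison, against -0.05 with TMM, and gave 2030 genes higher and 8421 lower with GB, against 4281 and 5045. On that scale all 6 genes were called lower. Directions given for the GB libraries are relative to the TMM scale.

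Over the whole table, values with GB ran with gene length, and the 6 genes lie at the long end. Class medians (log2) were 1.06 over 532 genes no longer than 500 bases and -0.86 over 308 genes above 16000 bases, of which 224 fell and 14 rose on the TMM scale. Among these 308 genes, 10 had a log2 fold change lower than that of Syne1. The number lower was 84 for Macf1, 107 for Neb, 213 for Syne2 and 229 for Ttn. For Xirp2, in the class of 2298 genes from 8000 to 16000 bases with a median of -0.65, 1723 genes were lower. Syne1 was thus near the low end of its length class, Macf1 and Neb between the lower quartile (-1.38) and the median, and Syne2 and Ttn between the median and the upper quartile (-0.46). The part of gene length in these values was tested only through the length offset.

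The 20 longest genes tested include Ttn, Syne1 and Macf1. Of the other 17, 12 were called lower with GB on the TMM scale and 5 were not called, with a median log2 fold change of -0.97. Dst, the second spectraplakin, fell by 1.73 on the log2 scale and Ank2, an ankyrin that anchors membrane proteins to spectrin, fell by 2.16, and with the length offset Dst was at -0.48 and Ank2 at -0.98. With age the median log2 fold change of the 308 genes over 16000 bases was 0.11, and 245 of them were lower than Macf1, 230 lower than Syne1, 225 lower than Syne2, 87 lower than Neb and 28 lower than Ttn. Ttn thus lay near the low end of its length class with age, and the length offset gave it a log2 fold change of -0.81 (edgeR adjusted p = 0.000699).

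**Figure D3:**
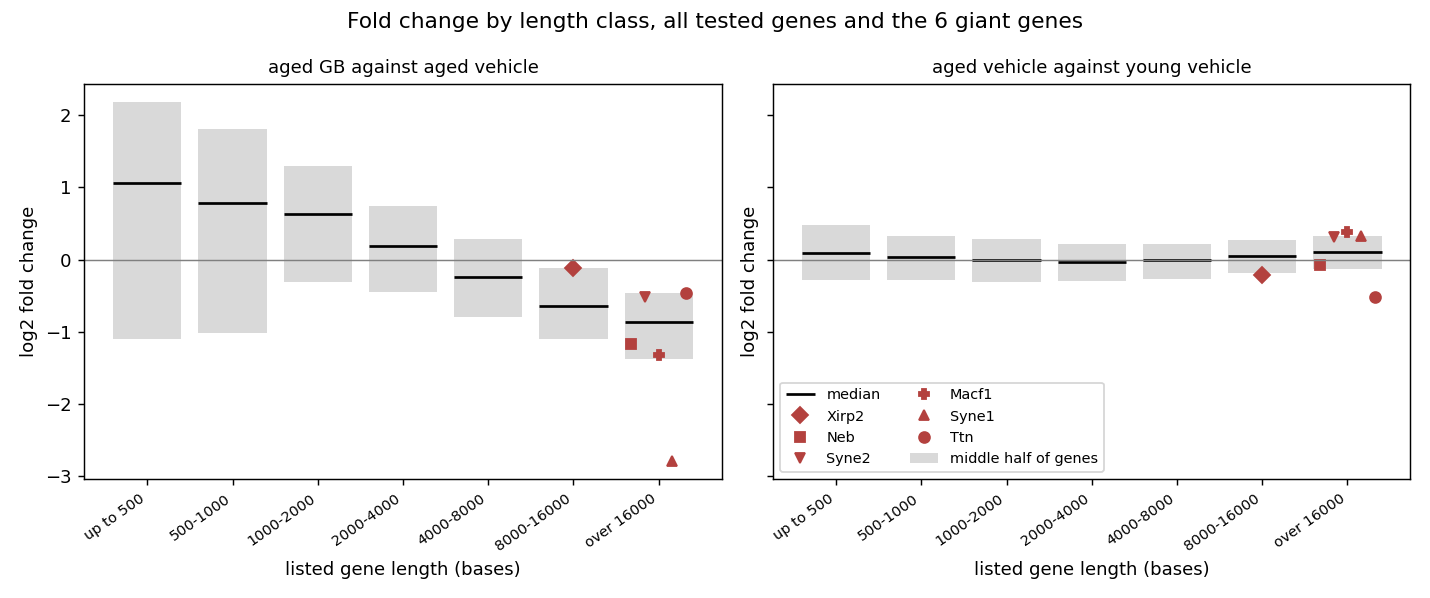
Log2 fold change by class of listed gene length for aged GB against aged vehicle (left) and aged vehicle against young vehicle (right), on the TMM scale. Black lines are class medians, grey bars run from the lower to the upper quartile, and symbols are the 6 genes. Medians fall from 1.06 in the shortest class to -0.86 in the longest with GB and stay between -0.03 and 0.11 with age. Ttn, Syne2 and Xirp2 lie above the median of their class with GB, and with a length offset they turn positive.

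Aged GB against young vehicle is not in the design and shares its libraries with the other comparisons, so its values are given beside theirs and not as further evidence. Here 5 of the 6 genes were called lower, against a background of 53.6% called, 29.0% lower and 24.7% higher (55.3% called lower over 8000 bases). The log2 fold change was -2.46 for Syne1 (SE 0.15, edgeR adjusted p = 6e-08), -1.24 for Neb (SE 0.09, 2.52e-07) and -0.93 for Macf1 (SE 0.09, 2.79e-06), and with the length offset it was -1.44, -0.31 and 0.06. Ttn was at -0.99 (SE 0.15, edgeR adjusted p = 0.00023) and Xirp2 at -0.34 (SE 0.07, 0.00136), and both turned positive with the length offset, to 0.29 and 0.37. Syne2 was at -0.21 (SE 0.11, 95% interval -0.45 to 0.04, edgeR adjusted p = 0.137) with overlapping groups, at 0.72 with the length offset, and called lower without aged GB replicate 2 (-0.33, adjusted p = 0.0346) and with library totals (-0.77, adjusted p = 0.000127), a scale on which all 6 genes were called lower here too.

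Ratios between genes within a library do not depend on how libraries are scaled to each other, though they do depend on any length trend where the genes differ in length. Each ratio was taken per kilobase on the log2 scale, and 12 differences were tested with exact two-sided permutation tests, in which 3 libraries against 3 cannot give a p below 0.1. The adjusted p was 0.133 or more for all 12, so none could pass.

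Syne2 to Syne1, the ratio of the nesprins, was 3.69, 2.83 and 3.02 in the aged GB libraries and 0.555, 0.659 and 0.735 in the aged vehicle libraries. In the young vehicle libraries it was 0.718, 0.65 and 0.603. On the log2 scale it averaged 1.66 ± 0.20 with aged GB, -0.63 ± 0.20 with aged vehicle and -0.61 ± 0.13 with young vehicle (SD, n = 3 each). Aged GB exceeded aged vehicle by 2.29 (exact permutation p = 0.1) with no overlap, and aged and young vehicle differed by -0.02 (exact permutation p = 1).

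Neb to Ttn, the thin filament ruler over the sarcomeric spring, was 1.61, 1.70 and 1.66 in the aged GB libraries and 2.37, 2.72 and 3.20 in the aged vehicle libraries. In the young vehicle libraries it was 2.0, 2.04 and 1.91. The groups did not overlap in any of the 3 comparisons. The difference on the log2 scale was 0.47 for aged over young vehicle, -0.73 for aged GB over aged vehicle and -0.26 for aged GB over young vehicle, each with an exact permutation p of 0.1.

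Xirp2 to Ttn averaged 0.72 ± 0.04 in the aged GB, 0.40 ± 0.35 in the aged vehicle and 0.07 ± 0.15 in the young vehicle libraries on the log2 scale (SD, n = 3 each). The aged vehicle libraries spread over the range of both other groups. Macf1 to Dst, the pair of spectraplakins, averaged -1.21 ± 0.06 with aged GB, -1.61 ± 0.24 with aged vehicle and -2.18 ± 0.11 with young vehicle. These groups did not overlap, and Dst stood above Macf1 per kilobase in all 9 libraries.

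**Figure D4:**
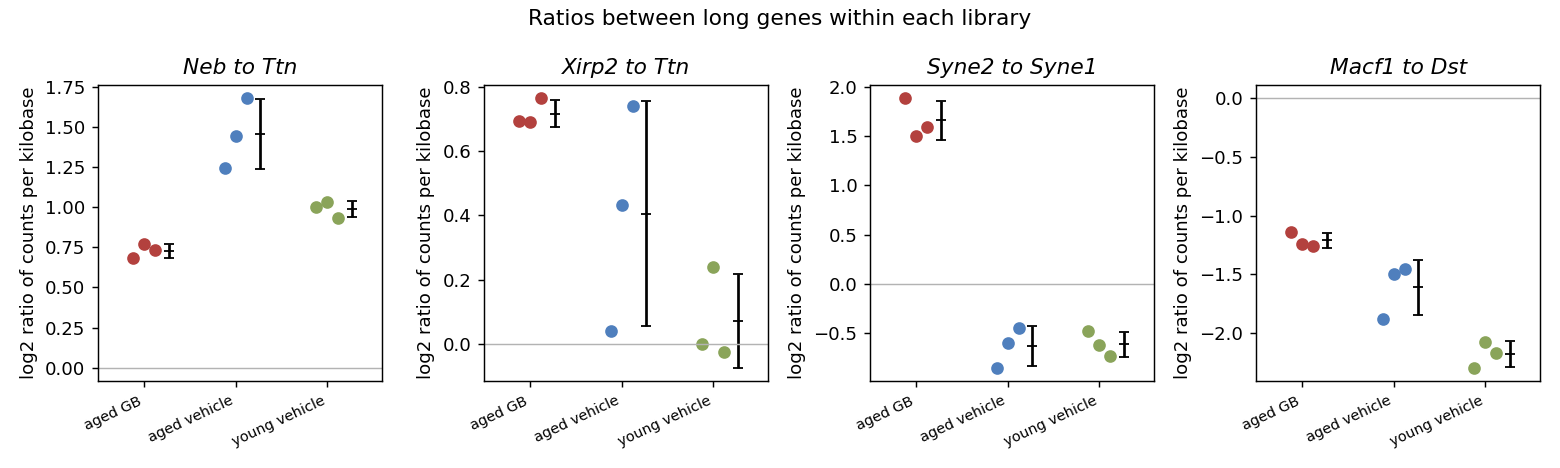
Log2 ratio of counts per kilobase for 4 pairs of long genes, with 1 point per library, ordered aged GB, aged vehicle and young vehicle, and the mean with SD beside the points. The Syne2 to Syne1 ratio lies above 0 in the 3 GB libraries (mean 1.66) and below 0 in the 6 vehicle libraries (means -0.63 and -0.61).

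Genes of partner and related proteins were followed, at the level of RNA, through 5 lists of partners. Of the 120 genes in these lists 119 were tested, Sptbn4 being too low. With age 13 partners rose and 18 fell, against a background of 8.60% of all genes called. With GB 25 rose and 64 fell on the TMM scale, against a background of 53.2% called and 28.8% called lower. Library totals gave 13 higher and 83 lower with GB, and the length offset gave 32 higher and 47 lower. Partners that rose with GB had a median listed length of 3266 bases and those that fell 6944 bases. In each of the 5 lists the genes that fell had the longer median. The gap was smallest in the thin filament list, at 3087.5 bases for those that rose against 3457.5. The part of length in these counts was not tested beyond the length offset.

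Of the 32 titin partners, 5 were called higher and 7 lower with age, against 7 higher and 15 lower with GB (medians -0.08 and -0.16 on the log2 scale). With GB, library totals gave 5 higher and 21 lower, and the length offset gave 10 and 14. Over all genes 4.32% were called higher and 4.28% lower with age, and 24.4% and 28.8% with GB. With age Ankrd1, a stress-responsive ankyrin repeat protein that binds the titin spring, had 20.5 ± 6.80 CPM in the aged vehicle and 3.69 ± 0.662 CPM in the young vehicle libraries, a log2 fold change of 2.48 (SE 0.24, with an edgeR adjusted p of 0.000107). Myom3, a myomesin of the M-band, fell to 26.0 ± 3.98 CPM in aged vehicle, against 93.3 ± 16.6 CPM in young vehicle libraries. Myoz2, a Z-disc protein, stood at -1.44 (log2, SE 0.32), a fall whose call was lost without young vehicle replicate 1, 2 or 3, aged vehicle replicate 3 or aged GB replicate 1 (adjusted p up to 0.0918).

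With GB the titin partner that moved most was Capn3, the muscle calpain anchored on titin, at 1.12 ± 0.517 CPM in the aged GB and 19.1 ± 0.988 CPM in the aged vehicle libraries (log2 fold change -4.09, SE 0.23, edgeR adjusted p = 2.32e-08). Mybpc1, a myosin-binding protein C, fell by 2.22 (SE 0.15) and Ankrd23, another ankyrin repeat protein of the titin spring, by 1.78 (SE 0.15) on the log2 scale. Tcap, which caps the Z-disc end of titin, was at 6907 ± 53.9 CPM in the aged GB, 2607 ± 445 CPM in the aged vehicle and 1726 ± 303 CPM in the young vehicle libraries. Its log2 fold change was 1.41 (SE 0.13) for aged GB against aged vehicle and 0.59 (SE 0.13) for aged against young vehicle. The age call of Tcap was lost without young vehicle replicate 2 or 3 or aged vehicle replicate 1 (edgeR adjusted p up to 0.0698). With the length offset Tcap was at 0.58 with GB and still called, and Capn3, Mybpc1 and Ankrd23 were at -4.02, -2.12 and -2.03.

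Of the 21 thin filament partners, 6 fell with age and 15 were not called, and 8 rose and 6 fell with GB (5 rose and 14 fell with library totals, 8 and 7 with the length offset). Shares over all genes were 4.28% lower with age, and 24.4% higher and 28.8% lower with GB. The 6 age calls hung on single libraries: 0 were left without young vehicle replicate 2 or 3 or aged vehicle replicate 3, and 2 without aged vehicle replicate 1 or 2. Acta1, the actin of the skeletal thin filament, was at 23969 ± 1642 CPM in the aged vehicle and 30965 ± 2522 CPM in the young vehicle libraries (log2 fold change -0.37, SE 0.09). With GB the list split. Tmod1, which caps the pointed end of the thin filament, fell to 16.8 ± 2.90 CPM in the aged GB, against 160.1 ± 14.3 CPM in the aged vehicle libraries (log2 fold change -3.25, SE 0.13, edgeR adjusted p = 1.36e-09). Des, the intermediate filament protein desmin that nebulin reaches at the Z-disc, rose to 7659 ± 644 CPM in the aged GB, against 2619.8 ± 123 CPM in the aged vehicle libraries. Both kept direction and call with the length offset, while Neb itself did not keep its call.

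Of the 20 Xin and costamere partners, 3 were higher and 1 lower with age, against 1 higher and 15 lower with GB, where library totals gave 17 lower and 3 not called and the length offset gave 3 higher and 8 lower. Over all genes 4.32% were called higher and 4.28% lower with age. With GB 28.8% of all genes were called lower, and 59.0% of those over 8000 bases. The 15 partners that fell had a median length of 8191 bases. Talin gene Tln2 fell by 1.14 (SE 0.11) with age, while Flna, a filamin, rose by 0.99 (SE 0.11) and Ctnna1, a catenin of cell junctions, by 0.45 (SE 0.08) on the log2 scale. Vcl, the gene of the costamere protein vinculin, had the lowest fold change of the list with GB, at 2.28 ± 0.601 CPM in the aged GB and 59.4 ± 1.33 CPM in the aged vehicle libraries (log2 fold change -4.70, SE 0.16, edgeR adjusted p = 4.54e-10). Ctnnb1, the beta-catenin that Xin proteins bind, fell by 2.30 (SE 0.07) and Mef2d, a MEF2 factor, by 1.28 (SE 0.10). Xirp1, the other Xin gene, was not called with GB (0.21, 95% interval -0.15 to 0.57, edgeR adjusted p = 0.310), and was called higher without aged vehicle replicate 1 (0.47) and with the length offset (0.52, adjusted p = 0.0303).

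Of the 24 LINC, nuclear envelope and motor partners none was called with age in edgeR, 6 had an unadjusted p under 0.05, and DESeq2 called 1 and limma-voom 2. With GB 6 rose and 15 fell, where library totals gave 2 higher and 16 lower and the length offset 5 and 12. Over all genes 8.60% were called with age, and 24.4% were called higher and 28.8% lower with GB. Syne3, the nesprin that binds plectin, fell to 1.30 ± 0.601 CPM in the aged GB, against 5.33 ± 0.50 CPM in the aged vehicle libraries. Pcm1 and Akap9 had log2 fold changes of -2.03 (SE 0.13) and -1.71 (SE 0.20) on the TMM scale. With the length offset Syne3 was at -1.79, Pcm1 at -1.60 and Akap9 at -0.73, all still called. The genes of the SUN proteins that nesprins join changed less in value. Sun1 was at 45.9 ± 2.72 CPM in the aged GB and 55.1 ± 5.03 CPM in the aged vehicle libraries, and Sun2 at 121 ± 11.6 and 166 ± 18.8 CPM in the same order. Their log2 fold changes of -0.26 (edgeR adjusted p = 0.0275) and -0.45 (0.00196) became 0.18 and -0.23, neither of them called, with the length offset. The Sun1 call was also lost without aged vehicle replicate 1 or 2 or aged GB replicate 2 (adjusted p up to 0.0859).

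Of the 22 plakin, spectrin and spectraplakin partners, 5 were higher and 4 lower with age, against 3 higher and 13 lower with GB, where library totals gave 1 higher and 15 lower and the length offset 6 in each direction. Over all genes 4.32% were called higher and 4.28% lower with age, and 28.8% lower with GB. Among genes over 8000 bases 59.0% were called lower with GB, near the share of this list. The 13 partners that fell had a median length of 17492 bases. Dst had 163 ± 7.84 CPM in the aged GB, 539.8 ± 81.4 CPM in the aged vehicle and 613 ± 123 CPM in the young vehicle libraries. It fell with GB against aged vehicle (log2 fold change -1.73, SE 0.14, edgeR adjusted p = 8.9e-07), also with the length offset (-0.48). Dmd, the gene of dystrophin, fell to 54.5 ± 8.54 CPM in the aged GB, against 203 ± 23.5 CPM in the aged vehicle libraries, and its relative Utrn to 21.7 ± 2.70, against 73.5 ± 7.37 CPM. The log2 fold changes of Dmd and Utrn, -1.90 and -1.76 on the TMM scale, were -0.87 and -0.88 with the length offset, and both stayed called. With age Ank1, an ankyrin of the sarcoplasmic reticulum, fell by 0.83 (SE 0.10). Ank2 rose by 0.68 (SE 0.16), a call that was lost without young vehicle replicate 2 or 3 or any 1 aged vehicle replicate (adjusted p up to 0.108). Dsp, the desmosomal plakin, was at 0.0105 ± 0.0182 CPM in the aged vehicle and 5.15 ± 3.17 CPM in the young vehicle libraries. It is also 1 of 7 skin markers, whose summed level was 0.827 to 2.02 CPM in the aged vehicle and 3.63 to 82.8 CPM in the young vehicle libraries, and the part of skin cells was not tested.

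**Figure D5:**
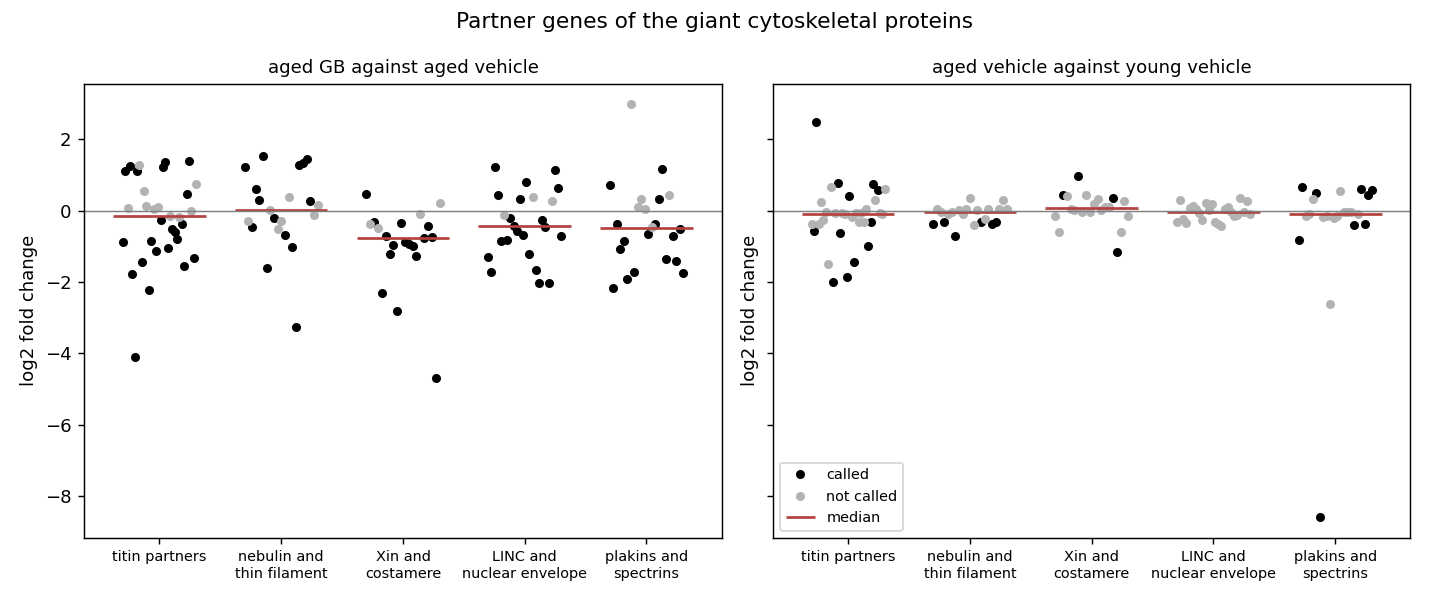
Log2 fold change of the tested genes in the 5 partner lists, for aged GB against aged vehicle (left) and aged vehicle against young vehicle (right), on the TMM scale, with called genes in black and list medians as red lines. With GB 15 of 20 Xin and costamere partners fell (median -0.76), while the thin filament list had a median of 0.03. Over all genes 28.8% were called lower with GB, and 59.0% of those over 8000 bases. With the length offset the medians of these lists were -0.13 and 0.09, and that of the plakin list turned to 0.14, against -0.48.

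Likeness of pattern was measured as the root mean square difference of log2 CPM over the 9 libraries, each gene centred on its own mean, among 7448 candidates of at least 10 CPM. The genes most like Ttn were Gpd2 (0.0924), Ryr1, the calcium release channel of skeletal muscle (0.122), and Sort1 (0.133). Those most like Neb were Prdm2 (0.0580), Myom2, the M-band myomesin of fast fibres (0.0630), and Usp24 (0.0792). Xirp2 was closest to Gnpat (0.0419), Terf2 (0.0522) and Lap3 (0.0596). Syne1 had no neighbour as close, the nearest being Tasor2 (0.169), Nav2 (0.181) and Usp34 (0.197). These have 12454, 32228 and 18453 bases and log2 fold changes with GB against aged vehicle of -2.85, -2.57 and -3.01. The measure grows with the size of a gene's changes, and Syne1 changed most of the 6 with GB. Syne2 was closest to Enpp5 (0.0834) and Macf1 to Bdp1 (0.0760). Within the 6, Neb and Macf1 were the closest pair (0.227) and Xirp2 and Syne1 the farthest apart (1.18).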

How the data were processed

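Whole-number counts per gene with a length column were deposited by the authors for 9 libraries (KAPA mRNA kit, per the labels' protocols). Per the submitters' processing notes, HISAT2, SAMtools, FastQC and DESeq2 were used, with builds GRCm39 and mm10. Read counter, annotation and strandedness are not named in these sources. The listed length equalled the union of exons in GENCODE M21 for 95.2% of 48984 genes matched by symbol.

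Groups came from sample titles. Counts were tested with edgeR 4.0.16 (R 4.3.3): filterByExpr (minimum count 10, minimum total count 15), TMM, 1 robust quasi-likelihood fit over all libraries, two-sided p-values adjusted by Benjamini-Hochberg over 17534 genes, called under 0.05. The SE is the log2 fold change divided by the square root of F. The procedure was tested on simulated data in which few genes changed, besides a simulated length trend. That setting is unlike the GB comparisons, so it does not test the TMM scale there. The length offset was each library's lowess trend (span 0.3) of log2 counts on length. Ratios used SciPy 1.17.1. Replicates differed by more than sampling noise (chi-square per degree of freedom 15.2 to 54.6). Alternatives were other scalings and filters, DESeq2 1.42.0, limma-voom (limma 3.58.1), other fits and leaving out each library.

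The members and gene lists were chosen with earlier results of these data known. Named genes were all members, fixed relatives (Dst, Xirp1, Sun1, Sun2; another is not reported here), up to 3 called genes per partner list with the largest change and a higher group mean of 5 CPM or more, and the 3 closest profiles per member.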

Additional observations from a re-analysis of the deposited data

How the results depend on the processing

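The count of the 6 genes called with age was 1, and it was 2 with library totals, 3 with upper-quartile factors, 2 with DESeq2, 3 with limma-voom, 3 with the length offset, 0 at an adjusted p under 0.01 and 0 to 2 when a library was left out. The 3 calls with the length offset were all lower and left out Macf1, the 1 call of the main fit. Genes called with age over the whole table numbered 1508, against 2264 with DESeq2, 650 at an adjusted p under 0.01 and 749 to 2010 when a library was left out. With GB against aged vehicle and against young vehicle, the count of the 6 stayed between 4 and 6 in all 22 alternatives, but the directions did not stay. The main fits called 0 higher and 5 lower in both, against 53.2% and 53.6% of all genes called. The length offset called 3 higher and 1 lower against aged vehicle, and 3 higher and 2 lower against young vehicle. The length offset turned the log2 fold change with GB against aged vehicle to 1.10 for Ttn, 0.67 for Xirp2 and 0.56 for Syne2. Against young vehicle it turned to 0.29 for Ttn, 0.37 for Xirp2, 0.72 for Syne2 and 0.063 for Macf1. The offset by its construction takes out what a gene shares with others of its length in a library. The Syne2 to Syne1 ratio of aged over young vehicle, near 0, ran from -0.115 to 0.0876 when a library was left out. Fits with the replicate number as a block called 1, 5 and 5 of the 6 genes in the 3 comparisons and changed no call of a member, and 1312, 8958 and 9025 genes overall. The labels do not say whether same-numbered libraries share more than a number. Correlations of their deviations ran from -0.028 to 0.057, and those of other pairs from -0.051 to 0.031. Such values cannot tell whether same-numbered libraries share a batch. The read counter and strand setting behind the counts are unknown, isoforms were not resolved, and 3 libraries a group limit every interval.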
